A study of Canis lupus familiaris with 2 samples.

Results

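De novo lipogenesis is the pathway by which cells build fatty acids from carbohydrate carbon. Citrate that leaves the mitochondria is split by ATP citrate lyase (ACLY) into acetyl-CoA and oxaloacetate, acetyl-CoA carboxylase alpha (ACACA) turns acetyl-CoA into malonyl-CoA, and fatty acid synthase (FASN) joins these units to palmitate. FASN consumes NADPH at each round of chain extension, and the cytosol draws this NADPH from the pentose phosphate pathway, in which transketolase (TKT) works in the non-oxidative branch, and from malic enzyme and isocitrate dehydrogenase. Fat cells and liver cells are known for high levels of these enzymes. The 4 genes ACLY, ACACA, FASN and TKT are described here, of 823 genes that could be named. They were chosen by their measured differences between the groups, on the same arrays, and their values are therefore a description without any test.

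Left superior fat pads of dogs were sampled, which lie on the left atrium and hold ganglia of the intrinsic cardiac nerves. In the lenti-control group a control lentivirus carrying a scrambled sequence was injected into the fat pad, and in the lenti-miR-206 group a lentivirus that overexpresses the microRNA miR-206 was injected instead. The sample labels give 2 weeks after infection for lenti-miR-206, and the study's methods give the same time for both groups. Neither label mentions atrial tachypacing (A-TP), and the pools were therefore taken as the groups without A-TP. The virus was injected directly into the tissue, and the cells that took it up are not given. Total RNA of 3 dogs was mixed in equal quantities for each group and hybridized to 1 Affymetrix canine array, and the arrays are called the control pool and the miR-206 pool. Each group is thus 1 pool on 1 array, the spread between dogs is unknown, and no p-value or error can be given. The probe sets listed number 1628, besides 19 controls of the array, and all of them show a log2 difference of at least 1.0 in either direction. A probe set is a group of short probes designed for 1 transcript or for several related ones, and its value is a log2 intensity, so that a log2 difference of 1.0 is 2-fold. Genes without a listed probe set are not analysed here. The labelled tissue was checked against its markers. The adipocyte markers FABP4 and ADIPOQ had log2 intensities of 14.20 and 13.21 in the control pool, and the atrial myosin light chain MYL7 had 13.09, so the control RNA carried transcripts of fat cells and of heart muscle. The study's methods describe the removal of fat before RNA collection for control and A-TP dogs, and do not state whether this was done for dogs given lentivirus.

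All 6 probe sets listed for the 4 genes were lower in the miR-206 pool than in the control pool. Those of ACLY were about equal to the median of the listed spike-in controls of the array. Lower values by at least 2-fold were found for 24.9% of all listed probe sets, and since the rule used this contrast, the count of 6 of 6 is only a description. The differences ran from 2.06-fold for ACLY to 8.96-fold for FASN. They were larger for the last enzyme of the path, FASN, than for the enzymes before it, ACLY and ACACA.

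**Figure D1:**
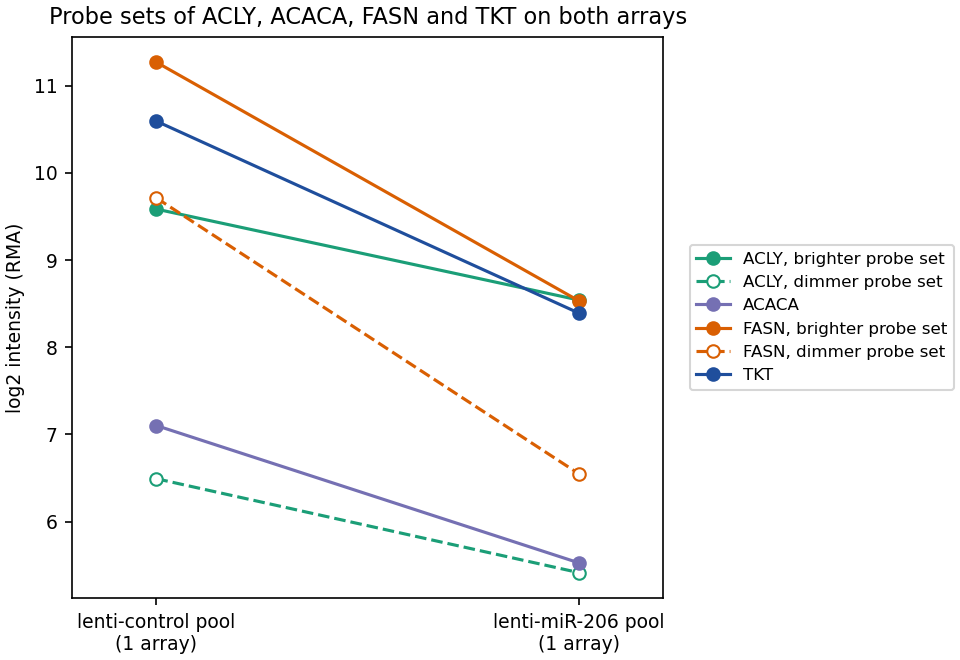
Log2 intensity (y axis) of each probe set of ACLY, ACACA, FASN and TKT in the lenti-control and the miR-206 pool (x axis), with 1 array each and no error bars because there are no replicates; filled points and full lines are the brighter or the single probe set of a gene, open points and dashed lines the dimmer one. All 6 lines slope down, and those of FASN are the steepest, falling from 11.27 to 8.53 and from 9.71 to 6.55.

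ACLY (Entrez gene 607852), which supplies cytosolic acetyl-CoA, was read by 2 probe sets. The brighter probe set gave 9.58 in the control pool and 8.54 in the miR-206 pool on the log2 intensity scale. This log2 difference of -1.04 leaves 48.5% of the control level. The dimmer probe set gave 6.49 and 5.41, and its log2 difference was -1.08. These values lie under the median of all listed values, 7.21, and no detection call was used, so background may contribute to them. The pair differed from each other by only 0.034 on the log2 scale. ACLY lay just inside the 2-fold limit of the listed values, and any ACLY probe set with a smaller difference is not analysed here.

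ACACA (Entrez gene 491130), the enzyme of the committed step that makes malonyl-CoA, was read by 1 probe set. Its log2 intensity was 7.10 with the control virus and 5.53 with the miR-206 virus, a difference of -1.57. This corresponds to a 2.98-fold lower value. Both values lie under 7.21 too, with the same limit. No further probe set was listed to check it. The related carboxylase of the mitochondrial surface, ACACB, is not analysed here.

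FASN (Entrez gene 483378), the multifunctional enzyme that releases palmitate, had the largest differences of the 4 genes. Its brighter probe set gave a log2 intensity of 11.27 for the control pool but of 8.53 for the miR-206 pool. The log2 difference of -2.74 leaves 15.0% of the control level. The dimmer probe set gave 9.71 and 6.55, and its log2 difference of -3.16 leaves 11.2%. The value of 6.55 is under 7.21 as well, so this difference is less certain in size than that of the brighter probe set. Ordered from the lowest difference upwards among all 1628 probe sets, these were at positions 22 and 10. Both probe sets placed FASN below the other 3 genes.

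TKT (Entrez gene 476588) moves 2-carbon units between sugar phosphates and links glycolysis with the pentose phosphate pathway. It was read by 1 probe set, whose log2 intensity was 10.59 for the control pool but 8.39 for the miR-206 pool. The log2 difference of -2.20 leaves 21.7% of the control level. The suffix s_at marks a probe set that can read several transcripts, which holds for 3 of the 6 probe sets here. For TKT it is the only listed reading, and any TKT probe set with a smaller difference is not analysed here. TKT has been described as a target of miR-206 in other cells, and a search for its seed was not made here.

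With the brightest probe set of each gene the order of the differences was FASN, TKT, ACACA and ACLY, from the largest to the smallest. Neighbours in this order lay 0.54 (FASN and TKT), 0.63 (TKT and ACACA) and 0.53 (ACACA and ACLY) apart on the log2 scale, and without replicates the order is a description of these 2 pools. At a limit of 3-fold, 3 of the 6 probe sets were lower, both of FASN and that of TKT, against 8.60% of all listed probe sets. The nearest value inside this limit was that of TKT, 4.60-fold, and the nearest outside was that of ACACA, 2.98-fold.

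Probe sets of 1 gene share the RNA and the array and are not replicates, and their spread says nothing of that between dogs. Among 205 genes with 2 listed probe sets, the log2 differences of the pair lay a median of 0.26 apart, and 90% of the pairs lay at most 0.88 apart. The gap of FASN was 0.43, and 61 of the 205 genes had a gap as large or larger. The gap of ACLY was among the 21 smallest. The dimmer probe set had the larger difference in 116 of the 205 genes, FASN and ACLY among them. Pairs of which 1 probe set fell under 2-fold are not in this set, so the gaps are too narrow.

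**Figure D2:**
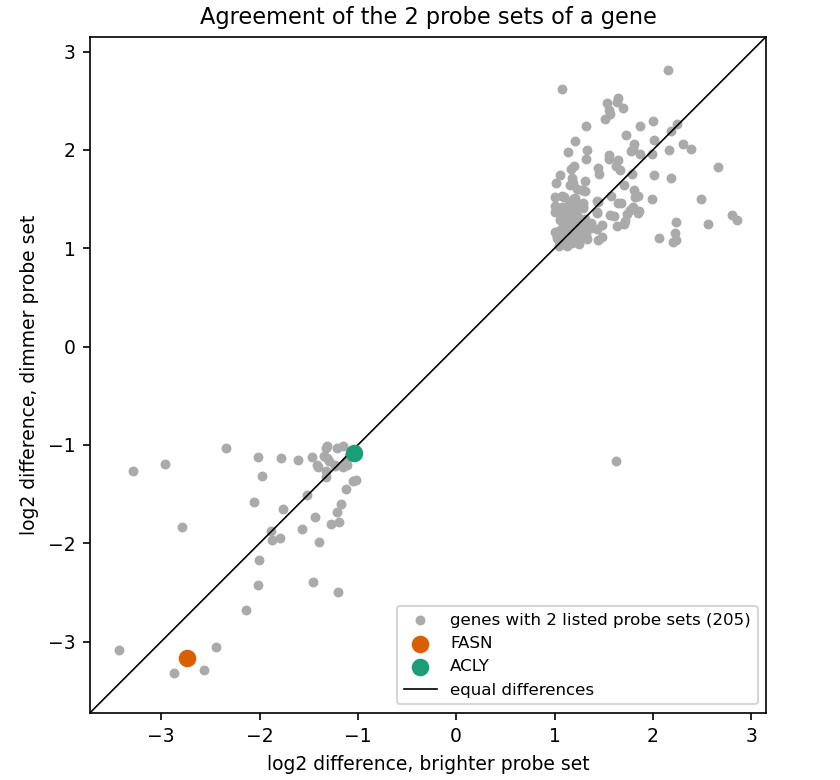
Log2 difference of miR-206 minus control array of the brighter (x axis) and the dimmer probe set (y axis) of 205 genes with 2 listed probe sets, where each point is a gene and the line marks equal differences. ACLY lies on the line and FASN 0.43 below it, and 1 gene, DTNA, has probe sets of opposite direction; differences under 2-fold are absent by selection.

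The size of these differences depends on the level taken as unchanged, and the array gives 2 kinds of control. The 13 bacterial spike-in controls listed are all of the bioB, bioC and bioD type, which are added as labelled RNA to the hybridization mix and follow neither extraction nor labelling of the dog RNA. Their log2 differences lay between -1.170 and -1.001, with a median of -1.08. The 5 control probe sets of GAPDH, an enzyme of glycolysis, had log2 differences between 1.16 and 1.43, with a median of 1.31. The control for the 5' end of actin had 1.41. Within GAPDH the log2 difference was 1.16 at the 3' end, 1.31 in the middle and 1.43 at the 5' end in the set named Cf_Gapdh, so the ends were read unequally in the pools. The part of RNA quality in the differences of the 4 genes was not tested.

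Relative to the spike-in median, ACLY had log2 differences close to 0, with 0.033 for the brighter and -0.00090 for the dimmer probe set. Both ACLY differences lay inside the range of the 13 listed spike-in controls, which like ACLY lie just past the 2-fold limit of the listed values. ACACA kept a log2 difference of -0.50, TKT of -1.13, and FASN of -1.66 and -2.09, and these probe sets were lower than each of the 13 spike-in controls. In total 3 of the 6 probe sets remained lower by at least 2-fold on this scale, against 3.69% of all listed probe sets. This count too is only a description, since the genes were chosen by this contrast. Relative to the GAPDH median all 6 were lower, with log2 differences from -2.35 for ACLY to -4.47 for FASN. This direction was fixed beforehand, because that median is positive and the 6 differences are negative. Only the spike-in median could change the direction, and relative to it FASN, TKT and ACACA stayed lower. ACLY was lower relative to the GAPDH median and about equal to the spike-in median. Neither control is shown to be an unchanged level. Any control that differed by less than 2-fold is not listed, so both medians come from controls selected by the size of their difference.

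**Figure D3:**
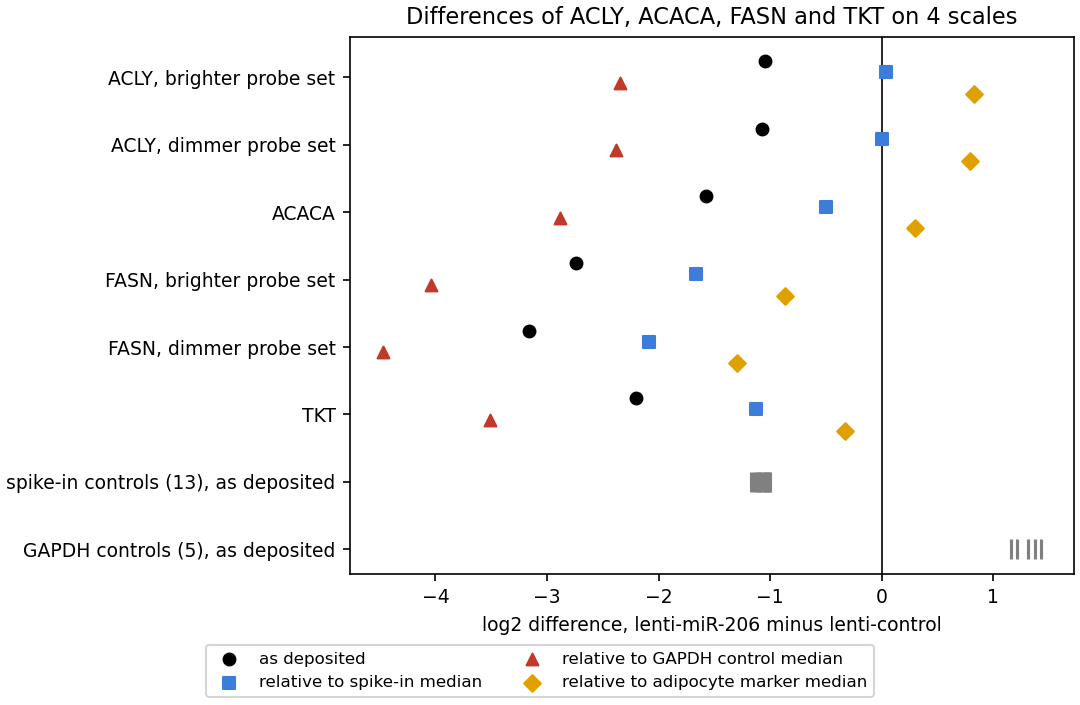
Log2 difference of miR-206 minus control array (x axis) of the 6 probe sets (y axis) as deposited and after the median of the spike-in controls, of the GAPDH controls or of the adipocyte markers was taken off; grey marks are the single spike-in and GAPDH control probe sets as deposited. ACLY moves to about 0 relative to the spike-in median and above 0 relative to the adipocyte markers, ACACA moves above 0 relative to the adipocyte markers only, and FASN and TKT stay below 0 on all 4 scales.

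Markers of several cell types also differed between the pools. Counts of higher genes are read against 75.1%, the share of all listed probe sets that were higher by at least 2-fold. Counts of lower genes are read against 24.9%, the share that were lower by at least 2-fold. Of 15 adipocyte markers, 9 were listed and all 9 were lower (8 of them also relative to the spike-in median), with a median log2 difference of -1.87 and a range from -2.87 to -1.02. The mean log2 intensity of the 9 markers was 10.73 in the control pool and 8.88 in the miR-206 pool. The largest differences were those of the lipid droplet proteins CIDEA (-2.87) and CIDEC (-2.47) and of the adipocyte regulator PPARG (-2.29). Of 20 cardiomyocyte markers, 16 were listed and all 16 were higher (2 of them turning lower relative to the GAPDH median), with a median of 1.67, led by the natriuretic peptide NPPB (2.83), the mitochondrial creatine kinase CKMT2 (2.30) and the sarcomere protein TCAP (2.11). Their mean log2 intensity was 10.50 in the control pool and 12.20 in the miR-206 pool. In bulk tissue fewer cells of a type and less RNA per cell cannot be told apart, and the part of these marker shifts in the lipogenic differences was not tested.

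Set beside the adipocyte marker median, the 4 genes fell on both sides. Relative to this median FASN had log2 values of -0.87 and -1.29, and TKT had -0.33. With their brightest probe sets ACACA was 0.29 and ACLY 0.83 above it, so both were less reduced than the median marker. FASN, at -2.74, lay between CIDEA and CIDEC. This scale was chosen after the values were seen.

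Other cell types were represented by fewer markers. All 4 listed of 8 fibroblast markers were lower (median -1.28), led by COL1A2 (-1.35), COL1A1 (-1.31) and FBLN1 (-1.24). Relative to the spike-in median these values were only -0.27, -0.24 and -0.16, and another FBLN1 probe set was 0.02. All 5 listed of 14 neuron markers were lower (median -2.56), led by SNAP25 (-3.52), NEFL (-2.61) and STMN2 (-2.56). For glia all 3 listed of 7 markers were lower, S100B (-2.96, but -1.19 in its dimmer probe set), MAL (-1.45) and PMP22 (-1.19). The miR-206 values of SNAP25 and NEFL, 3.45 and 4.31, are near the lowest of all, so background may contribute to them. All 5 listed of 9 markers of smooth muscle and pericytes were higher (median 1.64), led by KCNJ8 (1.88), MYH11 (1.70) and MYL9 (1.64). Of 9 macrophage markers only LYZ (1.13) was listed, and it turns lower relative to the GAPDH median. None of 8 endothelial markers was listed.

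The enzymes that supply NADPH besides the pentose phosphate pathway were split by direction. Of 14 such genes 7 were listed, 3 lower and 4 higher. The lower ones were the cytosolic malic enzyme ME1, which had log2 intensities of 9.24 and 7.64 (-1.60), the cytosolic isocitrate dehydrogenase IDH1 with 7.99 and 6.50 (-1.49), and the NAD kinase NADK, which makes cytosolic NADP, with 9.74 and 8.54 (-1.19). The higher ones act in mitochondria. Isocitrate dehydrogenase IDH2 had 9.75 in the control and 11.31 in the miR-206 pool, a log2 difference of 1.56, and malic enzyme ME3 had 8.09 and 9.74, a difference of 1.64. The transhydrogenase NNT had a difference of 1.14 and malic enzyme ME2 of 1.05, and the ME2 values, 3.72 and 4.77, are near the lowest of all listed values, 2.95.

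Grouped by compartment, a grouping made after the values were seen, the 3 listed of 5 cytosolic genes were lower, with a median of -1.49, and the 4 listed of 9 mitochondrial genes were higher, with a median of 1.35, against the 75.1% of all listed probe sets that were higher. TKT, also cytosolic but of the non-oxidative branch, had the direction of the first group. No other gene of the pentose phosphate list was listed, so the NADPH supply of that pathway cannot be read from TKT. The 3 cytosolic genes also stayed lower relative to the spike-in median (ME1 -0.53, IDH1 -0.41, NADK -0.12). Relative to the GAPDH median IDH2 (0.25) and ME3 (0.34) stayed higher, while NNT (-0.17) and ME2 (-0.26) turned lower. The second probe sets of IDH2 and ME3 had log2 differences of 1.33 and 1.90. Heart muscle is rich in mitochondria, and the part of the higher cardiomyocyte markers in these values was not tested.

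The steps around the 4 enzymes were listed in part. On the list of fatty acid synthesis, which has 11 genes, ACLY, ACACA and FASN were the 3 listed, with a median of -1.57, and on the list of the pentose phosphate pathway, which has 13, TKT was the 1 listed. The citrate carrier SLC25A1 is not analysed here. For elongation and desaturation 3 of 18 genes were listed. TECR, the reductase that completes an elongation round, and HACD4, of the dehydratase family of that cycle, both had a log2 difference of about -1.3 (-1.31 and -1.32). Relative to the spike-in median these were only -0.23 and -0.24. The other HACD4 probe sets had -1.36 and -1.17, and -0.29 and -0.098 relative to the spike-in median. The desaturase FADS1 was higher by 1.30, with 1.13 and 1.51 in its other probe sets, and relative to the GAPDH median the first was -0.0022 and the others -0.17 and 0.20.

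Of 22 genes of triglyceride synthesis 3 were listed and all 3 were lower, with a median of -2.01. ACSL1, which activates fatty acids, had log2 intensities of 7.66 and 5.54 (-2.12). GPD1, which makes glycerol phosphate and is also among the adipocyte markers, had -2.01 and -2.43 in its probe sets. DGAT2, which adds the last acyl chain, had -1.47 and -1.12. Relative to the spike-in median ACSL1 (-1.05), GPD1 (-0.94 and -1.35) and the brighter DGAT2 probe set (-0.39) were lower. The dimmer DGAT2 probe set (-0.041) was about equal to that median, inside the range of the spike-in controls. Relative to the GAPDH median all 5 probe sets were lower, as any probe set with a negative difference must be.

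Among 35 regulators of lipogenesis 4 were listed, 2 lower and 2 higher. PPARG, the adipocyte nuclear receptor and also one of the markers, had log2 intensities of 9.16 and 6.88 (-2.29). MLXIPL, also called ChREBP, which switches on lipogenic genes when glucose is high, had 7.01 and 5.81, both under the median of 7.21. The log2 difference of MLXIPL was -1.20, and only -0.13 relative to the spike-in median. Its partner MLX was higher by 1.13 and 1.02 in its probe sets, and PRKAG2, a regulatory subunit of the AMP-activated kinase that phosphorylates acetyl-CoA carboxylase, by 1.26 and 1.27. Relative to the GAPDH median both MLX and both PRKAG2 probe sets turned lower, from -0.28 to -0.036. SREBF1 is not analysed here. Of 20 genes from glucose to citrate only the kinase PDK3, which inhibits pyruvate dehydrogenase, was listed (1.04, and -0.26 relative to the GAPDH median). None of 22 genes of sterol synthesis was listed.

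**Figure D4:**
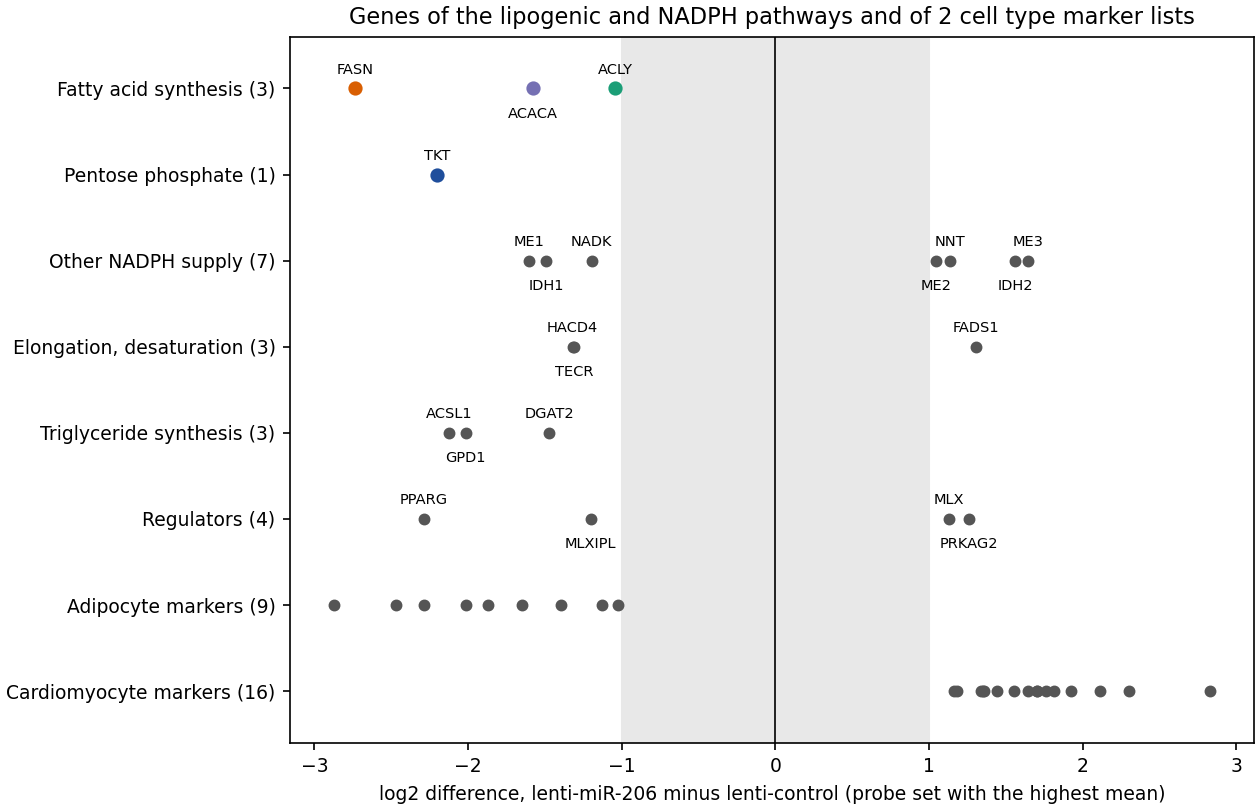
Log2 difference of miR-206 minus control array (x axis) of the listed genes of 6 pathway lists and of the adipocyte and cardiomyocyte markers (y axis, number of genes in brackets), each point being the probe set of a gene with the highest mean and coloured points the 4 enzymes described; the grey band is empty because only differences of at least 2-fold were listed. Cytosolic NADPH enzymes lie on the left with FASN, ACACA, ACLY and TKT, and mitochondrial ones on the right. Of the mitochondrial ones NNT and ME2 turn lower relative to the GAPDH median, as MLX and PRKAG2 (only -0.049) do. FADS1 is about equal to the GAPDH median, and ACLY is about equal to the spike-in median.

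The genes with the closest log2 difference were named for each of the 4, likeness being the absolute gap between the differences of the brightest probe sets over the 2 arrays. For FASN these were THBS4 (-2.77), the acyl-CoA synthetase ACSS3 (-2.79) and NEFL (-2.61), and only 2 genes lay within a log2 value of 0.1. For TKT they were ELAVL2 (-2.19), ACER3 (-2.18) and LOC491346 (-2.24), with 7 genes within 0.1. For ACACA they were VKORC1L1 (-1.58), the complement factor C3 (-1.57) and BBLN (-1.57), with 23 genes that near. For ACLY they were ZFAND5, NTRK2 and SNCG (all -1.04), and 55 genes lay within 0.1. With 2 arrays a pattern is a single difference, so the smaller ones are shared by many genes.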

How the data were processed

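The deposited values are log2 intensities, for which the submitters' processing notes name RMA. Its version, the software, the build, the filter and which arrays the authors normalized with each other were not given in the sources used here. Values run from 2.95 to 14.27, and all differ between the arrays by at least 1.0, as read from the values. RMA compresses differences at the dim and the very bright end, and the number of arrays limits the precision.

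Log2 differences (lenti-miR-206 minus lenti-control) were computed with pandas 2.3.3 and numpy 2.4.6 under Python 3.11.15, tested on simulated data, and drawn with matplotlib 3.10.9. Of all probe sets, controls included, 1184 had 1 gene symbol in the platform annotation, 22 several and 441 none. Through their Entrez identifiers 1104 were matched to the NCBI gene table of UU_Cfam_GSD_1.0, from which their symbols were taken. A gene was represented by its probe set with the highest mean. The 4 genes, 10 pathway lists and 8 marker lists were chosen with earlier results of these data known. Named were all listed pathway genes, up to 3 markers per list by size, and the 3 genes closest to each enzyme. FABP4, ADIPOQ, MYL7 and DTNA were named after their values were seen. Alternatives were other probe sets, filters and references. No test was possible with 1 array per group.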

Additional observations from a re-analysis of the deposited data

How the results depend on the processing

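No paired analysis was possible because each group is 1 array. No poly-A spike-in is among the listed controls, so that reference was not run, and the hybridization spike-ins are the same 13 controls as all spike-ins. Without s_at and x_at probe sets TKT has no value, without dim probe sets (higher value under 7.21) ACACA has none, and the other values of the 4 genes did not move under these filters. With the mean of all probe sets ACLY was -1.06 and FASN -2.95, and with the dimmest probe set -1.08 and -3.16. In the order ACLY, ACACA, FASN and TKT, the log2 differences were 0.033, -0.50, -1.66 and -1.13 against the spike-in median, -2.35, -2.88, -4.04 and -3.51 against the GAPDH median, -2.25, -2.78, -3.94 and -3.41 relative to the median of all probe sets (which is no unchanged level in a selected list), and 0.83, 0.29, -0.87 and -0.33 relative to the adipocyte marker median, chosen after seeing the data. The count of 405 lower probe sets became 60 relative to the spike-in median, 247 without s_at and x_at probe sets and 140 at 3-fold. It stayed within 1.5 times without dim probe sets (278). Under the GAPDH reference it was again 405, which was fixed beforehand. With a median of 1.31 taken off and no listed difference between -1.0 and 1.0, no other count was possible.

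List medians, with the spike-in reference first and the GAPDH reference second, were -0.50 and -2.88 for fatty acid synthesis, 2.12 and -0.26 for other NADPH supply (1.05 as deposited), -0.23 and -2.61 for elongation and desaturation, -0.94 and -3.32 for triglyceride synthesis, 1.04 and -1.34 for regulators (-0.036 as deposited), and 2.14 and -0.25 for enzymes that use NADPH (1.06 as deposited). With the mean of all probe sets the medians moved to -1.29 for elongation and desaturation, -2.12 for triglyceride synthesis and -0.063 for regulators. Without s_at and x_at probe sets the median was -0.028 for other NADPH supply (4 of 7 genes left) and 1.13 for regulators (3 of 4 left), and it was the same without dim probe sets (6 and 3 left). These lists hold genes of both directions with none between, so that their median turns as genes drop out.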

Other observations

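Of 14 enzymes that use NADPH in redox reactions 3 were listed, with a median log2 difference of 1.06. The aldose reductase AKR1B1 had log2 intensities of 8.99 in the control and 10.06 in the miR-206 pool, a difference of 1.07, and 1.42 in its second probe set. CYBB, the catalytic subunit of the phagocyte NADPH oxidase, had 5.28 and 6.34, a difference of 1.06. The inducible nitric oxide synthase NOS2 had 6.28 and 5.27, a difference of -1.01. The CYBB and NOS2 values lie under the median of all listed values, 7.21, so background may contribute to them. Relative to the GAPDH median the brighter AKR1B1 probe set (-0.23) and CYBB (-0.25) turn lower and the second AKR1B1 probe set (0.11) does not, and relative to the spike-in median NOS2 (0.068) turns higher. Of 12 genes of thiamine-dependent enzymes and thiamine supply, TKT was the 1 listed. The pyruvate and oxoglutarate dehydrogenase subunits on this list are not analysed here.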
